A study of Homo sapiens with 18 samples.

Results

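This account covers 34 human genes of DNA replication and of the passage from G1 into S phase. The genes were chosen by name for what their products do, with earlier results of these data known. They are 34 of the 58735 genes in the count table and 34 of the 20301 that passed the filter on low counts. The 34 are the subunits of the MCM2 to MCM7 helicase (6 genes), origin licensing factors (4), helicase activation factors (6), replicative polymerases (3), the sliding clamp and its loader (5), Okazaki fragment enzymes (2), enzymes of nucleotide supply (3), G1/S regulators (3) and factors of the fork and its chromatin (2).

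RNA was sequenced from OCI-Ly18, a human diffuse large B-cell lymphoma cell line carrying green fluorescent protein and grown under the skin of NSG mice, an immunodeficient strain that lacks T, B and natural killer cells of its own. All 6 mice received CART19 cells, human T cells that carry a chimeric antigen receptor. The 3 control mice (M_766, M_769 and M_770) had vehicle and the other 3 (M_767, M_768 and M_774) had tazemetostat (EPZ6438), an oral inhibitor of the histone methyltransferase EZH2, at 150 mg/kg daily. Dosing began 3 days after implantation and lasted 14 days, the T cells followed, and fluorescent tumour cells were sorted 11 days after the infusion. The tumour is 1 cell line, and the sources used here give neither the age and sex of the mice nor whether dosing went on after the infusion. The comparison asks how tumour cells that had met CART19 cells differed in RNA with and without the EZH2 inhibitor.

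A cell copies its DNA in a fixed order. In G1 the origin recognition complex, CDC6 and CDT1 load rings of MCM2 to MCM7 onto origins. At the start of S phase CDC45 and the GINS complex join the ring to make the active helicase, and polymerases held by the clamp PCNA copy both strands. Cyclin E with its kinase helps to release E2F factors from the retinoblastoma protein RB1, and E2F factors drive transcription of many genes of this set. Germinal-centre B cells, from which this kind of lymphoma arises, divide fast, and EZH2 is known for holding genes silent in them.

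E2F factors bind short sites near the start of their target genes, so the promoters of the set are shown first. RefSeq promoters (build GRCh38.p14, 250 bases before to 50 after the start site) were matched by symbol for 30 of the 34 genes; MCM4, MCM5, GINS4 and CCNE2 had none. The words TTTCCCGC, TTTCGCGC, TTTGCCGC and TTTGGCGC, which follow the E2F consensus, were searched on both strands. At least 1 of them stood in 17 of 30 promoters (56.7%), against 908 of 27305 promoters of the table (3.33%) and 2 of 15 promoters of a G2/M list of 20 genes (13.3%). At least 2 stood in 5 of the 30 (16.7%) and in 0.154% of all promoters; such words may overlap. Stretches around these words follow for the 5 genes with such a word whose tazemetostat mice were all below the vehicle mice, described further on, and for 4 further genes of the set. Each runs 5′ to 3′ on the gene's strand and ends before the RefSeq start site, and capitals mark the E2F words, read as written or as their reverse complement:
MCM6 (chr2:135876511-135876544, minus strand): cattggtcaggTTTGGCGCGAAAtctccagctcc
MCM7 (chr7:100101398-100101417, minus strand): ggggggcgacgTTTCGCGCc
CDT1 (chr16:88803743-88803772, plus strand): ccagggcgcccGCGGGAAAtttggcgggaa
LIG1 (chr19:48170440-48170469, minus strand): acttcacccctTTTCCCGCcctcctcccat
E2F1 (chr20:33686387-33686429, minus strand): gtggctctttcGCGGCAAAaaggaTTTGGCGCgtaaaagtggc
MCM3 (chr6:52284898-52284927, minus strand): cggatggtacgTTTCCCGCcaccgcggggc
POLE (chr12:132687343-132687371, minus strand): tgggtgggagcGCGCCAAAtttctcccct
PCNA (chr20:5126663-5126692, minus strand): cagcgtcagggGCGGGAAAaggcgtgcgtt
TYMS (chr18:657603-657632, plus strand): gcgggacggccGCGGGAAAaggcgcgcgga

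The E2F1 stretch holds 2 words, 1 on each strand, in the gene for an E2F factor itself. In MCM6 2 words overlap in 1 run, and its window holds 4 in all. The CCAAT box, read on both strands as CCAAT, stood in 63.3% of the promoters of the set, in 86.7% of the G2/M promoters and in 35.7% of all. The CHR words TTTGAA and TTCGAA, known from G2/M promoters, stood in 6.67% of the set, 73.3% of the G2/M promoters and 16.6% of all. These shares were not tested against each other, and the CHR share of the set rests on 2 promoters. A matching word is a description of the letters and not a measured binding site.

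Libraries held 16124494 to 26336269 counts and the sums of 3 libraries per mouse 55712115 to 69816184. Since the mouse received the drug, the 3 libraries of a mouse (A, B and C, whose meaning is not stated) were summed, and n is 3 mice per group throughout. The 7 B-cell markers MS4A1, CD79A, CD79B, PAX5, CD22, BLK and EBF1 each had at least 4865 counts in each mouse, and their summed level was 2657 to 3166 CPM (the usual unit of read counts relative to the total, scaled with TMM factors) in vehicle and 2781 to 2793 in tazemetostat mice. CD3D and CD3G, defining T-cell genes, were at 0 in all 6 mice, and CD3E had 1 to 9 counts. Of 14 T-cell genes 4 to 6 were at 0 in a mouse, and 5 passed the filter on low counts. These 5 summed to 120 to 157 CPM in vehicle and 109 to 138 in tazemetostat mice, of which TRBC2 gave 93.5 to 138. Of 10 myeloid and stromal genes 1 or 2 were at 0 per mouse (FCGR3A in all 6 mice). The 6 of these genes that passed the filter summed to 3.41 to 7.15 CPM over the 6 mice.

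Library M_768_C, from a tazemetostat mouse, stood apart from the others in many of the genes. There 17 of 34 genes lay more than 0.2 on the log2 scale from the mean of its sister libraries M_768_A and M_768_B, whereas in the libraries of the other 5 mice 0 or 1 did. CLSPN read 19.3 CPM in M_768_C against 53.5 and 51.5 in the sisters, a difference of -1.44. PCNA read 571 against 377 and 379 CPM, and POLE 208 against 318 and 311 CPM. Short genes were high and long genes low in this library: across the 34 genes, which share the library, the difference had a Spearman correlation of -0.63 with the gene length given in the table, and across 9419 genes at 10 CPM or more it was -0.65. Where leaving it out moves a log2 fold change by over 1.5 times, both values are given.

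**Figure D1:**
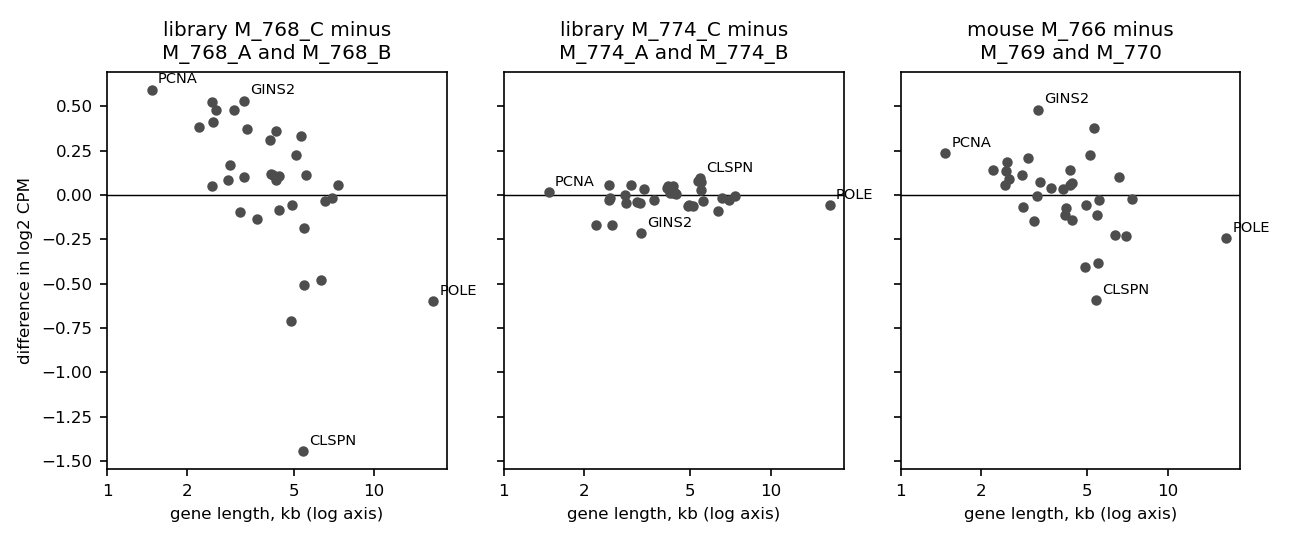
Difference in log2 CPM (vertical axis) against gene length in kb (horizontal, log axis) for the 34 genes, 1 point a gene. Library M_768_C (left) departed from its sisters by up to -1.44 in CLSPN, library M_774_C (middle) by no more than 0.22 in size, and the vehicle mouse M_766 (right) from the other vehicle mice by up to -0.59.

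The set was strongly expressed. Per kb of gene length its median level was 31.2 CPM per kb over the 6 mice, against 2.21 for all genes tested, and the median gene of the set stood at the 93.2 percentile. PCNA, the ring that tethers polymerases to DNA, was highest with 244 to 290.0 CPM per kb over the mice, and CCNE2, a cyclin E, lowest with 2.69 to 4.003. The means of these extremes differed 81.1-fold. The length is the one deposited with the counts, and whether it matches the transcripts expressed here was not tested. Orders between genes, here and below, hold for this length only.

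Among helicase subunits, MCM7 (123 to 152 CPM per kb) was above MCM3 (114 to 132) in all 6 mice, although their ranges overlapped. MCM4 (70.97 to 88.6) came next, apart from both neighbours. MCM6 (47.4 to 56.4), MCM5 (45.7 to 58.05) and MCM2 (40.2 to 57.5) could not be ordered, since neighbours kept their order in 4 of 6 mice. So the 6 subunits, which sit in the ring in equal number, spanned 3.00-fold in RNA level per length.

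In licensing, CDT1 (48.6 to 62.2 CPM per kb), which brings the MCM ring to origins, was apart from ORC6, CDC6 and ORC1. The range of CDC6 (19.3 to 21.7) overlapped those of ORC6 (20.9 to 25.3) and ORC1 (17.2 to 19.7). ORC6 and ORC1 did not overlap each other. In helicase activation the order of levels per kb was CDC45, GINS2, GINS1, MCM10, GINS3 and GINS4, from 33.6 down to 5.18 CPM per kb on average. Of these neighbours, GINS1 and MCM10 overlapped. The 4 GINS genes, which form 1 complex, thus differed in level per length as deposited, with GINS4 the lowest of them.

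POLD1, the catalytic subunit of the lagging-strand polymerase, held 42.5 to 56.4 CPM per kb, POLE, that of the leading-strand polymerase, 17.1 to 21.7, and POLA1, that of the priming polymerase, 10.1 to 12.5, with no overlap between neighbours. In the clamp loader RFC3 (50.02 to 57.2) was above RFC2, RFC4 and RFC5, of which RFC2 and RFC4 overlapped. TYMS, which makes thymidylate, had 82.7 to 88.3 CPM per kb and was above RRM1 and RRM2, the subunits of ribonucleotide reductase, which overlapped. Of the G1/S regulators E2F1 (72.5 to 96.1) was above CCNE1 (12.3 to 14.97), and CCNE1 above CCNE2 (2.69 to 4.003).

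**Figure D2:**
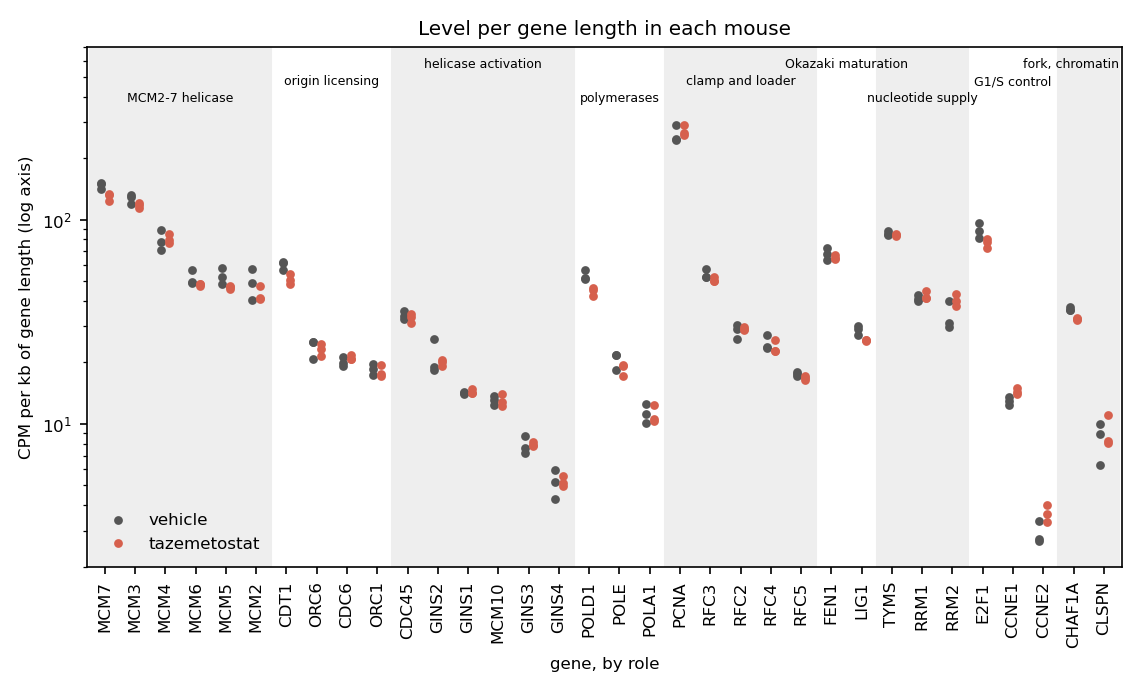
Level per kb of gene length (CPM per kb, log axis) of the 34 genes, grouped by role; each point is 1 mouse, grey for vehicle and red for tazemetostat (3 mice each). PCNA stands highest at 244 to 290.0 and CCNE2 lowest at 2.69 to 4.003, and within most genes the groups lie close together.

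Between tazemetostat and vehicle mice the levels of the set differed little. None of the 34 genes passed the test (edgeR quasi-likelihood, adjusted p below 0.05; smallest adjusted p = 0.635, for POLD1), where 7 of 20301 genes (0.0345%) did. At an unadjusted p below 0.05 edgeR gave 3 of the 34, POLD1 and CDT1 lower and CCNE2 higher in tazemetostat mice, where 6.55% of all genes were below it. On the same mouse sums DESeq2 called 0 of the 34 and 0.621% of all genes, and limma-voom 0 of the 34 and 0.0246% of all. The fit to all 18 libraries, with mouse as random effect, called 1, POLD1 (limma adjusted p = 0.0441), where it called 1.26% of all genes. That fit counts 18 libraries where the drug was given to mice, so its call does not stand on the same footing as those on mouse sums.

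The precision shows what size of difference these mice could hold. The 95% intervals of the log2 fold change had a median half-width of 0.20, 31 of 34 included 0, and 33 of 34 lay within a 1.5-fold change in either direction. CCNE2 was the exception, with an upper bound of 0.60. Log2 fold changes ran from -0.25 (POLD1) to 0.32 (CCNE2) with a median of -0.042, beside -0.0091 for all genes tested. In size their median was 0.075, beside 0.127 for all genes and 0.085 for the 9416 genes at 10 CPM or more. In sorted cells read in bulk, fewer cells in S phase and less RNA per such cell cannot be told apart.

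**Figure D3:**
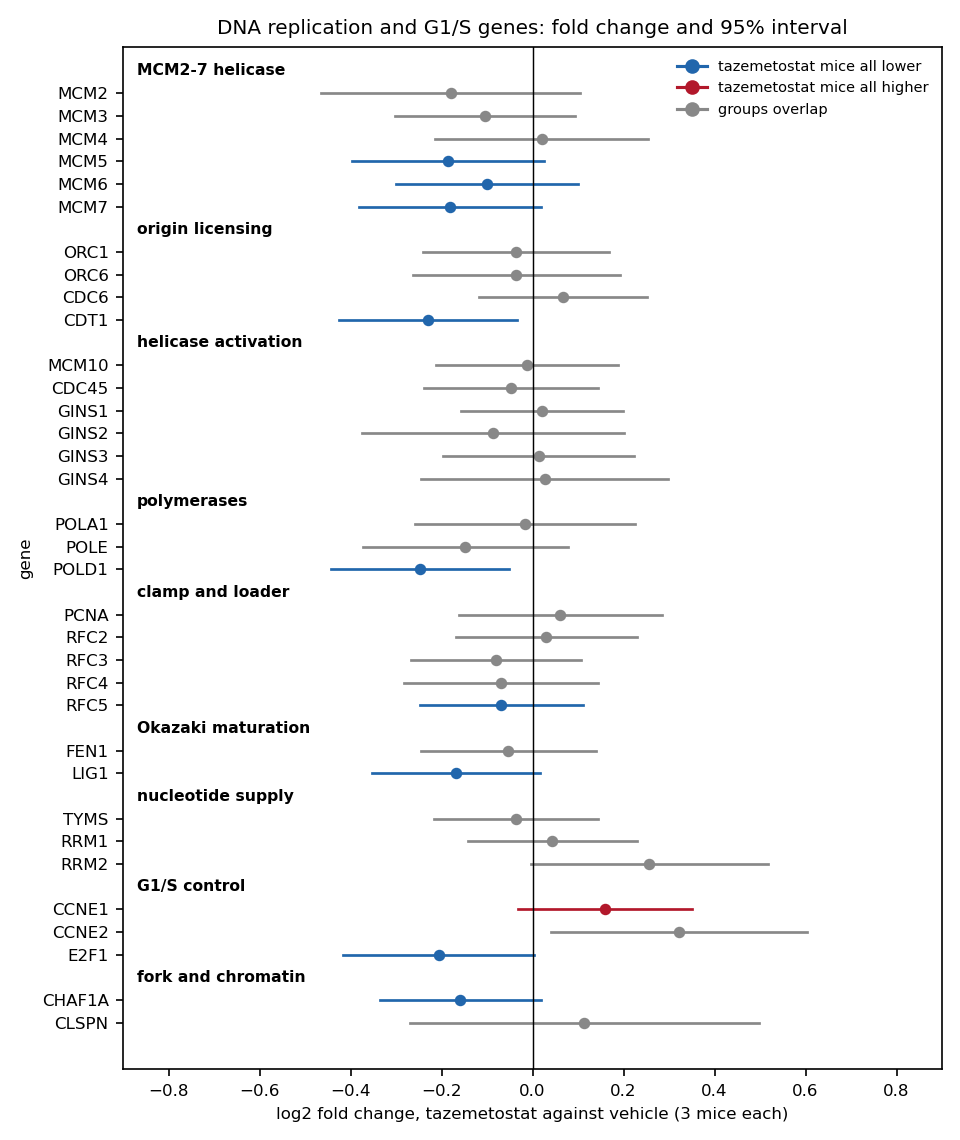
Log2 fold change of tazemetostat against vehicle mice (points; 3 mice each) with its 95% interval (lines) for the 34 genes, grouped by role. Blue marks the 9 genes whose tazemetostat mice were all below the vehicle mice, red the 1 gene all above, grey the 24 that overlapped; 31 of 34 intervals include 0.

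Most of the small differences were negative. Of the 34 genes 22 had a negative and 12 a positive log2 fold change (35.3% positive, beside 48.1% of all genes tested); with upper-quartile scaling in place of TMM, which shifts the median of all genes to -0.042, 7 were positive, as were 40.7% of all genes. In 9 genes all tazemetostat mice lay below all vehicle mice: MCM5, MCM6, MCM7, CDT1, POLD1, RFC5, LIG1, E2F1 and CHAF1A. That is 26.5% of the set, where 6% of all genes tested did so and 5.46% of those at 10 CPM or more. Only CCNE1 of the 34 lay higher in all tazemetostat mice (2.94%), where 6.58% of all genes and 9.04% of those at 10 CPM or more did. With DESeq2 size factors 2 of the 34 did (6.79% of all genes), and without library M_768_C also 2 (7.99%). Without library M_768_C the lower ones were 10, the same 9 and RFC4, where 7.01% of all genes were so placed, and with upper-quartile factors 11, where 7.67% were. The genes of the set are regulated together and are not independent of each other, so these shares describe the set and test nothing.

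The MCM genes held 3 of the 9. MCM7 read 666, 617 and 652 CPM in vehicle mice (M_766, M_769 and M_770, the order kept below) and 539.9, 585 and 581 CPM in tazemetostat mice (M_767, M_768 and M_774). Every tazemetostat mouse was below every vehicle mouse, and the means were 645 ± 25.4 and 569 ± 24.96 CPM (SD, n = 3 each; log2 fold change -0.18, SE 0.090, adjusted p = 0.792 by edgeR). MCM7 (chr7:100092728-100101940, minus strand) shares 392 bases with AP4M1 on the opposite strand, whose counts came to 3.14% of its own.

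MCM5 read 383, 356 and 426 CPM in vehicle and 336, 342 and 346 in tazemetostat mice. The tazemetostat mice lay close together and the vehicle mice spread wider, so that 388 ± 35.3 stood against 341 ± 5.38 CPM (log2 fold change -0.19, SE 0.095, adjusted p = 0.803 by edgeR). MCM6 read 201, 204 and 232 CPM against 200.5, 199 and 195. Its groups touched almost, with less than 1 CPM between the highest tazemetostat and the lowest vehicle mouse, and with total counts in place of TMM they overlapped. Its log2 fold change was -0.10, and -0.027 without the vehicle mouse M_770; that of MCM5 without M_770 was -0.11.

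The other MCM subunits overlapped between groups. MCM2 ranged from 197 to 282 CPM in vehicle and from 201 to 231 in tazemetostat mice (log2 fold change -0.18), with values of -0.12 without library M_768_C, -0.29 without the vehicle mouse M_766 and -0.044 without M_770. MCM3 was 462 ± 24.5 against 429.7 ± 13.3 CPM and MCM4 552 ± 61.96 against 560.0 ± 27.1, the single subunit with a positive value (0.020). Summed, the 6 subunits held 2501 ± 166 CPM in vehicle mice against 2310.0 ± 28.02 CPM under tazemetostat, a ratio of 0.924. The vehicle sums were 2413, 2397 and 2692 CPM, so this ratio leans on M_770. The tazemetostat sums were 2340, 2284 and 2307 CPM.

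CDT1 had the largest difference of the licensing genes. It read 208, 205 and 189 CPM in vehicle and 169.8, 181 and 162 CPM in tazemetostat mice, and the groups did not overlap. The means were 201 ± 10.2 and 171 ± 9.61 CPM (log2 fold change -0.23, SE 0.089, adjusted p = 0.671 by edgeR, 95% interval -0.43 to -0.034). In M_768_C CDT1 read 219.9 CPM, above all 9 vehicle libraries, and without that library the log2 fold change was -0.26. CDT1 lies at chr16:88803213-88809258, plus strand.

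The other licensing genes overlapped and their means were near each other. ORC1, the ATPase of the origin recognition complex, was 58.5 ± 3.75 against 57.04 ± 3.84 CPM (log2 fold change -0.036; -0.023 without M_768_C), and ORC6, its smallest subunit, 102 ± 10.7 against 99.9 ± 7.08 (log2 fold change -0.036; -0.068 without M_768_C). CDC6, which loads the ring with the complex, was 112 ± 5.44 against 117 ± 2.80 CPM (log2 fold change 0.067).

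All 6 helicase activation genes overlapped between groups, with log2 fold changes from -0.087 (GINS2) to 0.026 (GINS4; 0.071 without M_768_C). CDC45, the highest of them per length, read 102, 92.6 and 96.4 CPM in vehicle and 88.9, 95.05 and 97.9 in tazemetostat mice. GINS1 was the steadiest gene over the mice with a 1.06-fold range from lowest to highest (log2 fold change 0.021; -0.0031 without M_768_C). GINS2, in contrast, read 85.1 CPM in the vehicle mouse M_766 and 59.7 to 66.9 in the other 5; its log2 fold change was -0.14 without M_768_C and 0.10 without M_766. MCM10, a factor that helps start the helicase, was 71.4 ± 3.64 against 70.8 ± 4.94 CPM (log2 fold change -0.012; 0.0088 without M_768_C). GINS3 was 40.2 ± 3.92 against 40.6 ± 0.776 CPM (0.013; -0.0035 without M_768_C). The sum of the 6 genes was 363 ± 16.9 and 357 ± 2.12 CPM, the nearest to equal of the role groups beside the clamp group.

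The polymerase genes all had negative values. POLD1 read 255, 252 and 278 CPM in vehicle and 224, 228 and 209 CPM in tazemetostat mice. The groups were well apart, by 252 against 228 CPM at the nearest, and the means were 262 ± 14.4 and 220.3 ± 9.59 CPM (a difference of -15.8%; log2 fold change -0.25, SE 0.088, adjusted p = 0.635 by edgeR, 95% interval -0.44 to -0.052). Of the 34 genes POLD1 had the smallest p (unadjusted p = 0.0178 by edgeR) and the lowest fold change. It lies at chr19:50384204-50418016, plus strand.

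POLE was 341 ± 32.01 against 308 ± 20.7 CPM and overlapped, with 304 CPM in the vehicle mouse M_766 below 318 and 322 in M_767 and M_774. Its log2 fold change was -0.15, and -0.093 without the mouse M_768. POLA1 was 71.3 ± 7.51 against 70.5 ± 7.35 CPM (log2 fold change -0.017; 0.024 without M_768_C).

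The clamp and its loader were level in sum, at 734 ± 43.5 CPM in vehicle and 737 ± 27.6 in tazemetostat mice. PCNA read 427, 365 and 359 CPM in vehicle and 391, 426 and 382 in tazemetostat mice. The 2 highest mice, M_766 and M_768, were in different groups, and without library M_768_C the log2 fold change of PCNA went from 0.060 to 0.0019. RFC5, a loader subunit, read 57.01, 58.7 and 55.6 CPM against 53.4, 55.5 and 54.5. Its groups did not overlap, by about 0.1 CPM (log2 fold change -0.068), and 437 of its bases also belong to WSB2 on the opposite strand, whose counts were 44.03% of its own. RFC2 (0.030), RFC3 (-0.080) and RFC4 (-0.070) overlapped between groups, these values being log2 fold changes, and without M_768_C RFC2 had -0.0030 and RFC4 -0.12. RFC4 shares 21 bases with EIF4A2 on the opposite strand, which had 924% of its counts.

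Of the Okazaki fragment enzymes LIG1, the ligase that seals the nicks, read 198, 191 and 179 CPM in vehicle and 167, 169 and 169.9 CPM in tazemetostat mice. No tazemetostat mouse reached the lowest vehicle mouse, and the 3 tazemetostat mice were within 3 CPM of each other; the means were 189 ± 9.51 and 169 ± 1.41 CPM (log2 fold change -0.17, SE 0.083, adjusted p = 0.792 by edgeR). FEN1, the nuclease that trims the flaps, read 179.6, 158 and 169 CPM against 159, 167 and 162 and overlapped (log2 fold change -0.053; -0.10 without M_768_C). FEN1 shares 4265 bases, not its whole span, with a gene model of FADS2 on the same strand. FADS2 had 98.6% of its counts, so reads could be split between them. TMEM258, on the opposite strand, shares 166 bases with FEN1 and had 26.2% of the counts of FEN1.

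The nucleotide supply genes summed to 564 ± 28.7 CPM in vehicle and 599 ± 12.2 in tazemetostat mice, a ratio of 1.06. These sums overlapped, since M_766 (597) was above M_768 (585), and none of the 3 genes passed the test. RRM2, the regulated small subunit of ribonucleotide reductase, read 213, 167 and 159.6 CPM in vehicle and 212, 202 and 229.5 CPM in tazemetostat mice. M_766 was as high as the tazemetostat mice while the other vehicle mice were below them, so the groups overlapped through 1 mouse (179.6 ± 28.7 against 215 ± 13.8 CPM; log2 fold change 0.26, SE 0.118, adjusted p = 0.764 by edgeR). Without M_766 the log2 fold change was 0.41. RRM1, the large subunit, was 172 ± 6.19 against 177 ± 7.40 CPM.

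TYMS read 218, 211 and 208 CPM in vehicle and 207, 210.0 and 204 CPM in tazemetostat mice, a range of 1.07-fold from lowest to highest. ENOSF1 overlaps TYMS on the opposite strand over 3255 bases and had 125% of its counts, so the steadiness of TYMS holds for counts that may include some of ENOSF1.

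The G1/S regulators had values of both signs. E2F1 read 241, 221 and 203 CPM in vehicle and 181, 200.2 and 194 CPM in tazemetostat mice. The highest tazemetostat mouse, M_768, was just below the lowest vehicle mouse, and the means were 221 ± 18.7 and 192 ± 9.59 CPM (log2 fold change -0.21, SE 0.094, adjusted p = 0.764 by edgeR). In M_768_C E2F1 read 247 CPM against 176 and 196 in its sisters, and the log2 fold change without it was -0.24. Without the vehicle mouse M_766 it was -0.13.

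CCNE1, a cyclin that activates CDK2 at the entry into S phase, read 34.4, 33.2 and 31.4 CPM in vehicle and 36.6, 38.2 and 35.9 CPM in tazemetostat mice. It was the single gene of the 34 with all tazemetostat mice higher (33.03 ± 1.49 against 36.9 ± 1.17 CPM; log2 fold change 0.16, SE 0.086, adjusted p = 0.816 by edgeR). M_768_C read 48.4 CPM, the highest of the 18 libraries, and without it the log2 fold change was 0.12.

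CCNE2, the second cyclin E, was the least expressed gene of the set and read 11.98, 14.7 and 11.8 CPM in vehicle and 17.6, 14.6 and 15.96 CPM in tazemetostat mice. The vehicle mouse M_769 and the tazemetostat mouse M_768 were alike and the others apart, and the means were 12.8 ± 1.65 and 16.1 ± 1.51 CPM (a difference of 24.95%; log2 fold change 0.32, SE 0.127, adjusted p = 0.688 by edgeR, 95% interval 0.040 to 0.60). Its gene shares 1977 bases with INTS8 and 912 with NDUFAF6 on the opposite strand, which had 385% and 172% of its counts, so part of its counts may come from them.

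CHAF1A, the large subunit of the chromatin assembly factor that puts histones on new DNA, read 161, 155 and 155 CPM in vehicle and 143, 141 and 139 CPM in tazemetostat mice. Both groups were tight and apart, with means of 157 ± 3.76 and 141 ± 1.78 CPM (log2 fold change -0.16, SE 0.080, adjusted p = 0.800 by edgeR). CLSPN, which passes the stalled-fork signal to the checkpoint kinase CHEK1, varied most of all, by 1.75-fold over the mice. It ran from 34.01 CPM in the vehicle mouse M_766 to 59.7 in the tazemetostat mouse M_767 and overlapped between groups (log2 fold change 0.11; 0.20 without M_768_C). The sign rests on single mice: without M_766 the value was -0.050, and without M_767 -0.046.

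**Figure D4:**
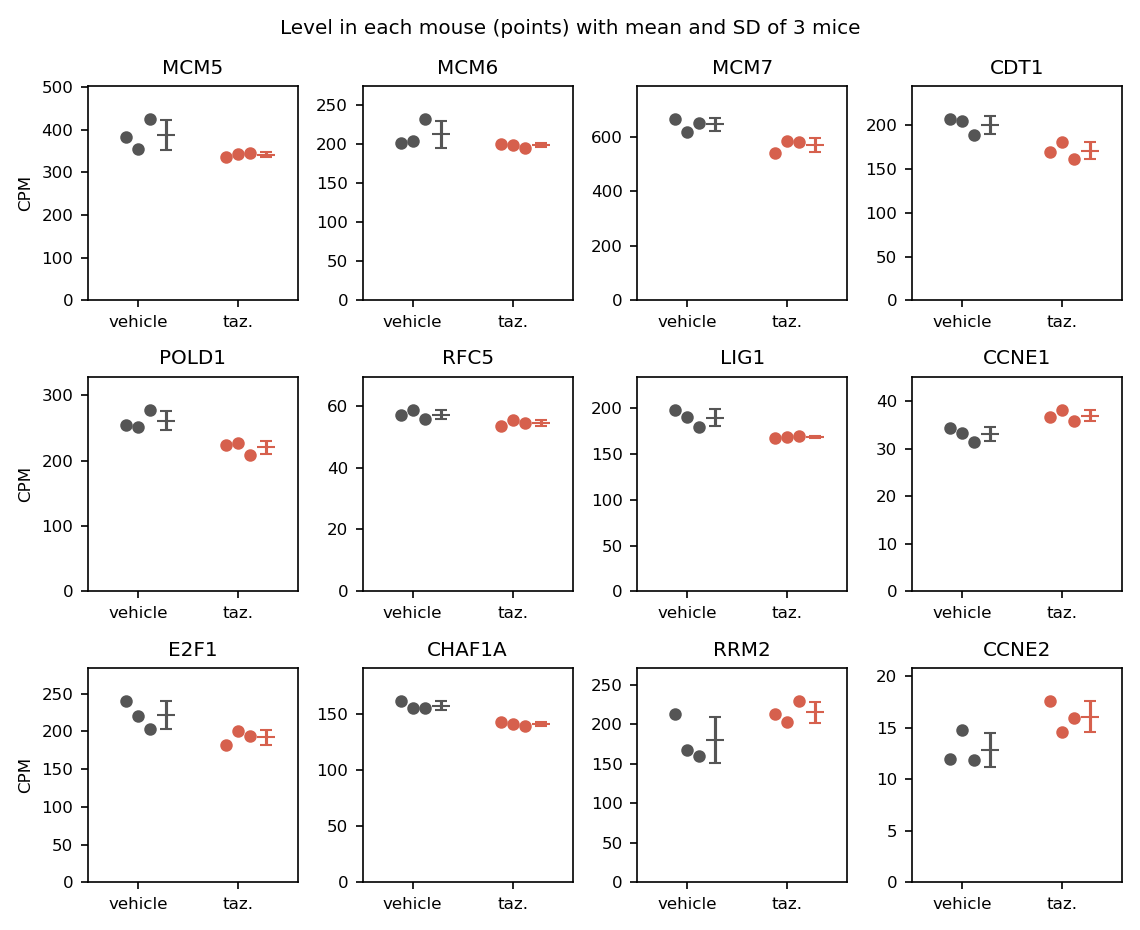
CPM (vertical axes from 0) in each mouse, grey for vehicle and red for tazemetostat, with the mean and SD of 3 mice at the right of each group, for the 10 genes whose groups did not overlap and for RRM2 and CCNE2. The gap between groups is clear in POLD1 and CHAF1A and under 1 CPM in MCM6 and RFC5.

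Summed over the 34 genes the level was 6140, 5979 and 6294 CPM in vehicle mice and 5845, 5802 and 5793 CPM in tazemetostat mice. The tazemetostat sums lay below the vehicle sums, at 5813 ± 27.5 against 6138 ± 157 CPM, a ratio of 0.947. The role groups did not share this: their ratios ran from 0.888 for the polymerases to 1.06 for nucleotide supply. Among single libraries M_768_C summed to 6117 CPM, above the libraries of the vehicle mouse M_769 (5898 to 6083). Across the 34 genes, all read in the same 6 mice, the log2 fold change was set beside level and length. Its Spearman correlation was -0.57 with the mean level in vehicle mice and -0.015 with gene length. The vehicle level is also the base of the fold change, so the first of these values does not compare independent quantities. Negative values were more usual among genes of the set with a high vehicle level. This relation with level was not computed over all genes.

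The spread of the genes differed between animals. The SD of log2 CPM over the libraries of 1 mouse had a median over the 34 genes of 0.034 to 0.047 in 5 mice and of 0.133 in M_768. Between mice it was 0.104 in the vehicle and 0.064 in the tazemetostat group. In M_766 11 of 34 genes and in M_770 8 of 34 were more than 0.2 (log2) from the mean of the other vehicle mice, with CLSPN the farthest in both. The difference of M_766 ran with gene length (Spearman -0.52 over the 34 genes of that mouse). The same correlation, each mouse against the others of its group, was 0.28 in M_769, 0.41 in M_770, 0.50 in M_767, -0.57 in M_768 and 0.078 in M_774. The trend with length was not particular to the set. Over the 9416 genes at 10 CPM or more the correlation was -0.53 in M_766, 0.47 in M_769 and 0.35 in M_770. It was 0.53 in M_767, -0.53 in M_768 and -0.022 in M_774. The 3 values of a group are not independent, since each mouse is set against the other 2.

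The promoters were set beside these values. Of the 9 genes with all tazemetostat mice lower, 8 had a promoter and 5 of these an E2F word; POLD1, RFC5 and CHAF1A had none in the window. Of the 21 overlapping genes with a promoter 12 had one, and CCNE1 had none. The median log2 fold change was -0.087 in the 17 genes with and -0.036 in the 13 without such a word; no test was made of this.

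The other genes of the pathway, 88 in number, were tested in the same fit. Of these 53 had a positive and 35 a negative log2 fold change (median 0.029); of all genes at 10 CPM or more 53.9% were positive, with a median of 0.012. Of the 88, 0 passed edgeR's test at an adjusted p of 0.05 and 6 had an unadjusted p below 0.05, 5 of them higher. Of all genes 0.0345% and 6.55% did. Tazemetostat mice were all higher in 8 and all lower in 8, where 9.04% and 5.46% of genes at 10 CPM or more were so placed. Their summed level was 11166 ± 154 CPM in vehicle and 10944 ± 108 in tazemetostat mice.

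Among other licensing and firing genes (16, of which 10 positive), ORC4 (0.25, adjusted p = 0.634 by edgeR) and ORC3 (0.20) had the smallest p; both belong to the origin recognition complex. ORC4 read 22.8, 23.5 and 21.8 CPM in vehicle and 26.2, 27.1 and 27.9 in tazemetostat mice, without overlap. Among other polymerase and fork genes (25, of which 15 positive) these were CHTF18 (-0.20), part of an alternative clamp loader, and RNASEH2C (-0.25), a subunit of the enzyme that removes RNA from DNA. Among other nucleotide genes (10, of which 6 positive) they were SAMHD1 (0.32), which breaks down nucleotides, and CTPS1 (-0.12), which makes CTP.

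In the list of E2F and RB genes (18, of which 9 positive) FBXO5, an inhibitor of the anaphase-promoting complex, and RB1 had the smallest p. FBXO5 read 64.4, 61.5 and 56.7 CPM in vehicle and 76.5, 71.3 and 70.7 in tazemetostat mice (log2 fold change 0.26, SE 0.088, adjusted p = 0.589 by edgeR). RB1, the protein that holds E2F factors in check, read 129.6, 153 and 176 against 204, 179 and 184 CPM (log2 fold change 0.31, SE 0.117, adjusted p = 0.671 by edgeR). In both every tazemetostat mouse was above every vehicle mouse, while E2F1 lay below. Of chromatin and checkpoint genes (19, of which 13 positive) DNMT1 (-0.18), the maintenance DNA methyltransferase, and WEE1 (0.16), a kinase that delays mitosis, had the smallest p. None of these passed the test after adjustment.

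The G2/M genes, which peak later in the cycle, also had lower values. Of 20 genes 19 had a negative log2 fold change (median -0.12), where 53.9% of genes at 10 CPM or more were positive. By edgeR 0 passed the adjusted test, where 0.0345% of all genes did, and 0 had an unadjusted p below 0.05, where 6.55% did. In 0 were the groups apart, where 12.6% of all genes were. On 20 genes these 0 counts say little. Their sum was 3025, 3379 and 3534 CPM in vehicle and 3265, 2980 and 2953 CPM in tazemetostat mice, so the groups overlapped through M_766 and M_767. The replication set divided by this sum was 2.03, 1.77 and 1.78 in vehicle and 1.79, 1.95 and 1.96 in tazemetostat mice, with no split by group.

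Another set of genes ran with the groups. Of 18 genes known to respond to stress and tissue dissociation, 16 had a positive log2 fold change (median 0.82), 12 an unadjusted p below 0.05 and 0 an adjusted p below 0.05 (edgeR). Of all genes 48.1% were positive, 6.55% had an unadjusted p below 0.05 and 0.0345% an adjusted p below 0.05. They summed to 1112 to 1544 CPM in vehicle and 1719 to 2322 CPM in tazemetostat mice, without overlap. With their level per mouse as a covariate, the 34 genes had a median log2 fold change of -0.070, 13 positive values and 0 calls by edgeR. Of all genes 48.7% were positive and 0.118% were called in that fit. Single values moved more: E2F1 to -0.064, MCM7 to -0.11, LIG1 to -0.091, MCM3 to -0.065 and CCNE2 to 0.20, nearer to 0, and MCM2 to -0.51, POLE to -0.28, MCM6 to -0.19 and RRM2 to 0.61, farther from it. Their part in the small differences of the set was not tested.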

How the data were processed

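Bulk RNA was sequenced from sorted tumour cells in 18 libraries of 6 mice. The authors deposited read counts per gene, whole numbers that are not normalized as their values show, with a gene length beside each. The submitters' processing notes name hg38 as build and DESeq2 as a tool. For aligner, counter and strand the setting is not given in the sources used here, so genes that overlap others (19 of the 34, of which 13 are overlapped by a gene with at least 1% of their counts) are uncertain. All 34 gene positions matched GENCODE release 29. Libraries were grouped by their treatment label and summed per mouse. The 18 pairs of libraries of 1 mouse all differed beyond sampling noise.

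Mouse sums were fitted in R 4.3.3 with the quasi-likelihood F test of edgeR 4.0.16 (two-sided, scaling by TMM, low genes removed by filterByExpr at a minimum count of 10, Benjamini-Hochberg over 20301 genes, threshold 0.05). The genes removed held 0.0602% of the counts, and the biological coefficient of variation was 0.140. The SE is approximate, the log2 fold change over the square root of F. Alternatives used limma 3.58.1, DESeq2 1.42.0, other scaling factors, no filter, an adjusted p of 0.1, libraries or mice left out and a covariate. Steps were tested on simulated data. Members and lists were chosen with earlier results of these data known. Genes named were all members, with values per mouse for the 8 of smallest p, those whose groups did not overlap and the highest per length of each role, and the 2 of smallest p of each list of other pathway genes; G2/M, marker and stress lists are given by counts, naming defining markers. The value of 1 other B-cell marker is not reported here.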

Additional observations from a re-analysis of the deposited data

Results flagged for a closer look

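The 9 libraries of each group were searched for a single library far from the nearest of the others, relative to the range of the group, for each of the 34 genes. Of 68 such searches 16 gave a library past the critical value of 0.493 (Dixon's test at 95%); chance gives about 1 in 20. Libraries of 1 mouse are not independent, so this is a description. Library M_768_C of the tazemetostat group was the one in 15 of the 16.

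In M_768_C 10 genes were high, in CPM: ORC6 at 128 (the others 91.1 to 101), CDT1 at 219.9 (the others 158 to 179), GINS1 at 67.7 (the others 54.2 to 60.96), GINS2 at 87.5 (the others 56.9 to 71.8), GINS3 at 45.4 (the others 38.8 to 42.05), PCNA at 571 (the others 377 to 396), RFC4 at 97.9 (the others 62.7 to 73.9), FEN1 at 217 (the others 148 to 166), CCNE1 at 48.4 (the others 33.1 to 38.8) and E2F1 at 247 (the others 176 to 198). Another 5 were low in that library, in CPM: MCM2 at 139.6 (the others 195 to 238), MCM3 at 390.4 (the others 424 to 450.5), GINS4 at 20.9 (the others 27.2 to 31.6), POLE at 208 (the others 311 to 331) and CLSPN at 19.3 (the others 40.9 to 61.2). The high genes thus include genes whose tazemetostat mice were all below the vehicle mice, CDT1 and E2F1, and the low genes include the longest of the set, POLE. The 1 other case was GINS1 in the vehicle library M_766_B, at 63.3 CPM where the others read 54.2 to 58.5. With M_768_C left out, 0 of the 34 genes were called by edgeR at an adjusted p of 0.05, as with it, and 5 in place of 3 had an unadjusted p below 0.05. Of all genes 7 were called both ways, and 8.20% in place of 6.55% had an unadjusted p below 0.05.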

How the results depend on the processing

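Under 15 alternatives 19 of the 34 genes kept the sign of their log2 fold change in every one and 15 changed sign in at least 1. Called genes numbered 0 under all alternatives but the fit to 18 libraries, which called 1 (POLD1, log2 fold change -0.24), and the libraries of a mouse share that mouse. Of all genes 0% to 1.26% were called, depending on the setting. Without M_769, M_768 or M_774 0 of all genes were called, so 0 calls in the set say nothing about the set there. The 12 genes with a positive value became 7 with upper-quartile factors (40.7% of all genes positive, from 48.1%) and 10 to 14 with 1 mouse left out. The median log2 fold change of the set stayed negative throughout: it was -0.075 with upper-quartile factors, -0.059 without library M_768_C, -0.070 with the stress level as a covariate and -0.061 to -0.038 with 1 mouse left out. The 10 genes without overlap became 11 to 17 with 1 mouse left out, the most without the vehicle mouse M_766. Of all genes 12.6% had no overlap, and 19.8% to 28.1% with 1 mouse left out (24.6% without M_766).

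Sign changes were small with upper-quartile factors and without library M_768_C. With the stress covariate or 1 mouse left out they were larger in several genes. With upper-quartile factors the log2 fold change became -0.011 in MCM4, -0.012 in GINS1, -0.021 in GINS3, -0.0035 in GINS4 and -0.0036 in RFC2. Without library M_768_C it became 0.0088 in MCM10, -0.0031 in GINS1, -0.0035 in GINS3, 0.024 in POLA1 and -0.0030 in RFC2. With the stress covariate, which follows the groups and leaves less to estimate from, it became -0.15 in MCM4, 0.056 in ORC6, 0.079 in CDC45, 0.30 in GINS2, -0.25 in GINS4, 0.052 in RFC4, 0.051 in FEN1, -0.027 in RRM1 and -0.38 in CLSPN. With 1 mouse left out it ran from -0.044 to 0.11 in MCM4, from -0.091 to 0.013 in ORC1, from -0.12 to 0.022 in ORC6, from -0.067 to 0.033 in MCM10, from -0.077 to 0.0021 in CDC45, from -0.18 to 0.10 in GINS2, from -0.040 to 0.10 in GINS3, from -0.081 to 0.15 in GINS4, from -0.10 to 0.069 in POLA1, from -0.031 to 0.089 in RFC2, from -0.13 to 0.013 in RFC4, from -0.10 to 0.0048 in FEN1 and from -0.050 to 0.26 in CLSPN. The cause was not tested. No paired analysis was possible because each mouse carries its own number and belongs to 1 group. CCNE2, the gene of lowest depth, had 653 to 1250 counts per mouse; depth and spread between mice were not compared as limits on the intervals.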
